A study of Mus musculus with 6 samples.

Results

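The enzymes that make glucose from lactate, amino acids and glycerol were followed through 10 genes: Pck1, Pck2, G6pc, G6pc3, Slc37a4, Pcx, Got1, Tat, Gpt and Ppargc1a. All probe sets of the deposited array table that the platform annotation gives exactly 1 gene symbol, and that symbol among these 10, were taken, which came to 20 of 22690. Of the 20, 4 are control probe sets of the manufacturer that tile Pcx. Livers came from 3 BPD mice and 3 GFP mice, all males of the obese, diabetic KK/H1J strain, 12 to 14 weeks old, of about 35 g and fed freely. The BPD mice had received an adenovirus encoding PFK-2/FBPase-2 without its bisphosphatase activity, and the GFP mice an adenovirus encoding green fluorescent protein, both into the tail vein at the same stated dose. Livers were taken on day 7, and RNA of each was hybridised to its own array, so each group had n = 3. Every animal carried a virus, so no uninjected liver enters any comparison, and the promoter and the PFK-2 isoform of the viruses are not stated in the labels used.

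Gluconeogenesis runs the lower part of glycolysis backwards and replaces its irreversible steps by enzymes of its own. Pyruvate carboxylase (Pcx) makes oxaloacetate in mitochondria, PEP carboxykinase turns it into phosphoenolpyruvate in the cytosol (Pck1) or in mitochondria (Pck2), and fructose-1,6-bisphosphatase and glucose-6-phosphatase complete the path. Transaminases (Got1, Gpt, Tat) bring in amino acid carbon and move it between compartments, and the coactivator PGC-1 alpha (Ppargc1a) raises transcription of the pathway in fasting liver. Fructose 2,6-bisphosphate, the product of PFK-2, inhibits fructose-1,6-bisphosphatase, and the comparison asks how the transcripts of the pathway stood in livers given an enzyme that can make but not remove it.

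The array medians were 174 to 197 in BPD livers and 135 to 157 in GFP livers, although each array had a trimmed mean near 499.9. Values were therefore taken as log2(signal + 16.3) and centred on each array's median. All differences below are BPD minus GFP on that scale unless stated. Since all BPD medians were above all GFP medians, centring lowers every such difference by the same amount. The median difference of all probe sets tested was 0.10 without centring and -0.21 with it. The tissue label was borne out by hepatocyte markers, with 14 of 14 measured genes above the filter. Their summed signal was 162024 to 182583 in BPD livers and 231471 to 247797 in GFP livers, and 13 of the 14 were lower in BPD livers. Among all genes tested, 22.1% were lower and 8.76% higher, but 11.1% lower and 17.2% higher without centring. The summed signal of 13 macrophage markers was 23001 to 50794 in BPD livers and 5614 to 19487 in GFP livers, with 8 of the 12 above the filter higher. That of 8 neutrophil markers was 1886 to 8345 in BPD livers and 513 to 810 in GFP livers, with 4 of the 6 above the filter higher. The sum of 8 stellate and matrix markers, all above the filter, was 3730 to 13948 in BPD livers and 1475 to 2109 in GFP livers, with 3 higher. In deposited signal Col1a1, Col1a2, Col3a1 and Vim did not overlap between the groups, while Lrat, Des, Acta2 and Pdgfrb did. That of 7 T and NK cell markers was 952 to 1372 in BPD livers and 265 to 746 in GFP livers, with 1 of the 2 above the filter higher. No marker of any of the 10 cell type lists lay below the added constant on all arrays. That needed only 1 array above it, and Vil1 (17.8) and Marco (20.2) exceeded it in BPD liver 28 alone. The part of these marker shifts in the results below was not tested. In whole liver fewer hepatocytes and less RNA per hepatocyte cannot be told apart. The array could not be used to check the injected enzyme, since its isoform is not stated; of the Pfkfb genes only a Pfkfb3 probe set passed the filter, averaging 122 in BPD livers and 98.3 in GFP livers (-0.08 ± 0.25, limma adjusted p = 0.837).

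Most of the measured gluconeogenic probe sets were lower in BPD livers, and mitochondrial Pck2 alone among them was higher. Of the 20 probe sets 16 lay above the filter, 9 of them were lower (56.25%), 1 was higher and 6 did not pass (limma, adjusted p under 0.05 over 13578 probe sets). Over all probe sets tested, 20.3% were lower and 8.30% higher. After centring, all BPD livers lay below all GFP livers for 9 of the 16 (34.0% of all probe sets tested) and above them for 1 (12.7% of all), and 6 overlapped. The median difference of the 16 was -0.80, against -0.21 for all 13578. With 1 probe set per gene, 6 of the 10 genes were lower and 1 higher, where 22.1% and 8.76% of 8151 genes were. Leaving out BPD mouse 28, GFP mouse 22 or GFP mouse 31 took the count of lower probe sets to 5, with backgrounds of 10.2%, 12.6% and 13.3% lower in those fits. It was also 5 of 16 with the deposited scaling (background 9.68% lower, 16.7% higher) and with quantile normalization (background 12.0% lower, 12.4% higher). Centred on hepatocyte markers instead, 2 probe sets were lower (background 3.03%) and 2 higher (background 57.7%). Slc37a4, Pcx and Got1 were lower, and Pck2 higher, under array-median centring, the deposited scaling and quantile normalization, which held for 8.09% of all probe sets as lower and 7.91% as higher. Slc37a4, Got1 and Pck2 also passed, in the same direction, relative to hepatocyte markers, Got1 not without BPD mouse 28 (limma adjusted p = 0.0684). Under all 4 scalings 3.02% of all probe sets were lower and 7.91% higher. For Pck2 the hepatocyte scale is no further check, since it moved the median of all probe sets up, from -0.21 to 0.59. All 1074 probe sets higher under the other 3 scalings stayed higher on it.

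**Figure D1:**
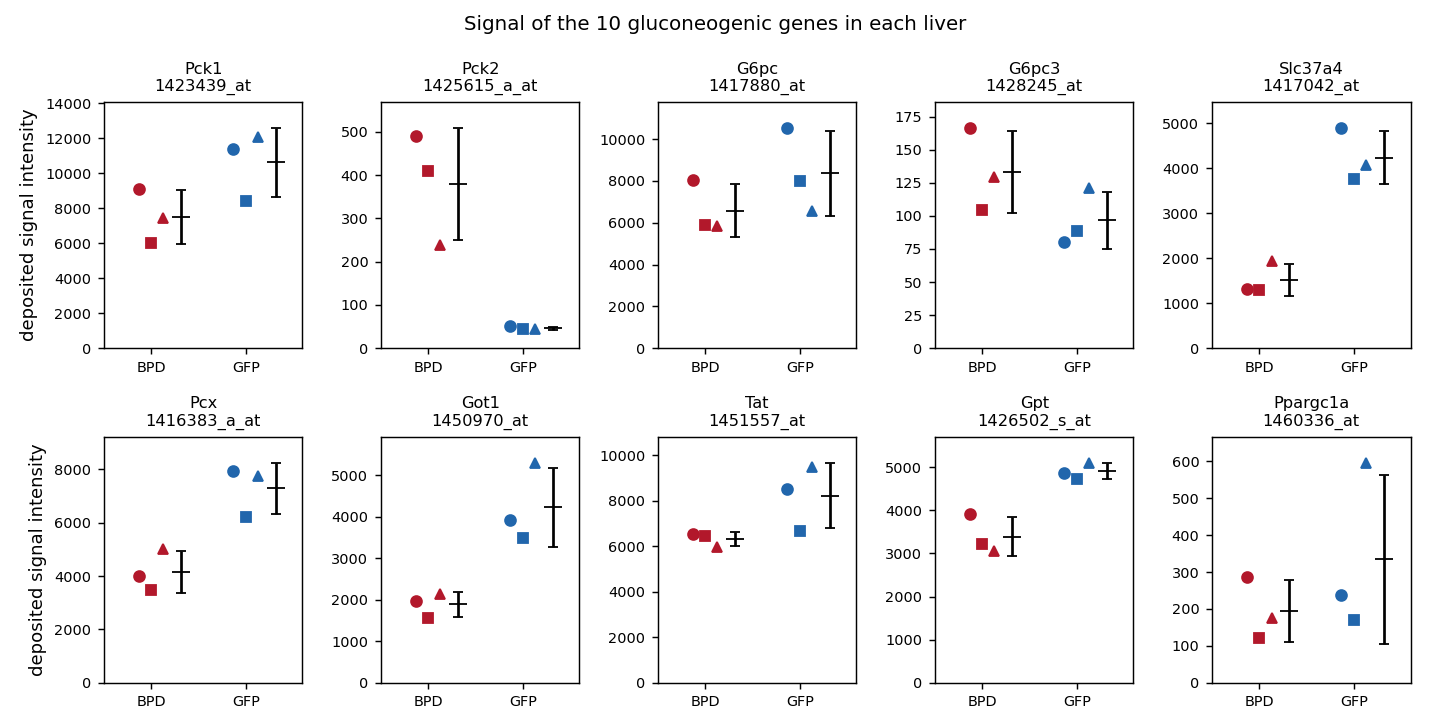
Deposited signal intensity of the brightest non-control probe set of each of the 10 genes, in 3 BPD livers (red) and 3 GFP livers (blue); circles, squares and triangles are mice 23, 28 and 36 (BPD) and 22, 29 and 31 (GFP), and black bars are mean ± SD. BPD livers lie above all GFP livers for Pck2 and below them for Slc37a4, Pcx, Got1, Tat and Gpt, while the groups overlap for Pck1, G6pc, G6pc3 and Ppargc1a.

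After array-median centring the 2 forms of PEP carboxykinase went in opposite directions, Pck2 higher and Pck1 lower. Pck1 passed under no other scaling, with -0.50 as deposited, -0.23 with quantile normalization and -0.01 relative to hepatocyte markers. Windows of 300 bases around the start sites of their genes are shown because the calls of these paralogs differ in direction after array-median centring. G6pc is added as another hormone-controlled gene of the path, though not the only one. The sequences are from RefSeq, build GRCm38.p6, of the C57BL/6J reference and not of KK/H1J, and each runs from 250 bases before to 50 after the start, in the direction of the gene. Capitals mark matches, on either strand, to 6 short motifs: TGACG (core of a cyclic AMP response element), CAAAACA and GTAAACA (forms bound by FOXO and other forkhead factors), CAAAGTCCA (a form bound by HNF4), GTTAAT (part of an HNF1 site) and TATAAA (core element of many promoters).
Pck1 (chr2:173152823-173153122, plus strand), Pck2 (chr14:55540016-55540315, plus strand) and G6pc (chr11:101367466-101367765, plus strand) read as follows.
Pck1: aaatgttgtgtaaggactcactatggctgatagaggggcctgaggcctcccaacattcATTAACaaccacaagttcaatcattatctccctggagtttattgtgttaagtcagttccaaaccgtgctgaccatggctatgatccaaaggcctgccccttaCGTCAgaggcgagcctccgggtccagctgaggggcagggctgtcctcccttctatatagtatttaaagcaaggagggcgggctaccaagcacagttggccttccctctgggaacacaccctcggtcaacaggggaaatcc
Pck2: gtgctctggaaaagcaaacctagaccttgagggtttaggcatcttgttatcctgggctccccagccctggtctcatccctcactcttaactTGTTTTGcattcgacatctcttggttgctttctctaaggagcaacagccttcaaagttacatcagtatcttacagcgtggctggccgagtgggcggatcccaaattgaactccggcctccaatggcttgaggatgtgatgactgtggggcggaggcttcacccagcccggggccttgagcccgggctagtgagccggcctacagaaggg
G6pc: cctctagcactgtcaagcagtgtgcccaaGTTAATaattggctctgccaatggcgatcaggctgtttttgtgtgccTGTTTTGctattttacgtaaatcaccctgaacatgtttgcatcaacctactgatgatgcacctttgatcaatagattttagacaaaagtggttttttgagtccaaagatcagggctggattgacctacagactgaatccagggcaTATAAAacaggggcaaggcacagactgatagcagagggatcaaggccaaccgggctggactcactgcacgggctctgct
The Pck1 window holds TGACG on the opposite strand from position -90 and GTTAAT on the opposite strand from position -192. The Pck2 window holds CAAAACA on the opposite strand from position -159. The G6pc window holds CAAAACA on the opposite strand from position -174, GTTAAT from position -221 and TATAAA from position -29. The marked matches do not overlap. Such matches are common, since 20.8% of all 32851 promoter windows hold TGACG, 6.28% CAAAACA, 7.1% GTTAAT and 13.6% hold TATAAA. Neither the other forkhead form, GTAAACA (3.65% of windows), nor CAAAGTCCA (0.475%) was found: each was in 0 of the 12 windows of 9 members, and Gpt had no window in the table. TGACG was in 4 of the 12 windows, among them overlapping windows of Slc37a4 in which the same site is counted in both. Each of the remaining motifs found was in 2. Among the members not printed, TGACG was found for Slc37a4 and Ppargc1a and TATAAA for Slc37a4.

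Pck2, the mitochondrial PEP carboxykinase, rose in BPD livers. Probe set 1425615_a_at had signals of 491, 409 and 238 in BPD mice 23, 28 and 36, against 50.5, 43.6 and 44.7 in GFP mice 22, 29 and 31. All BPD livers were above all GFP livers, and the GFP livers were nearly level with each other. The difference was 2.30 ± 0.27 (SE, limma adjusted p = 0.00076), or 4.94-fold higher, and 99.4% of all probe sets tested had a difference at or below it. The signal averaged 380 ± 129 in the BPD group and 46.3 ± 3.7 in the GFP group (SD, n = 3 each), a ratio of 8.20. The fold is smaller than this ratio because of both the added constant and the centring, and without centring the difference was 2.61. The GFP mean lies under the filter signal of 98.9, so this probe set passed through its level in BPD livers. It was called in all alternatives that kept it, with adjusted p from 0.00016 to 0.0051. The dimmer probe set 1452620_at did not pass the filter. Its signals were 56.4, 58.3 and 23.3 in BPD livers against 10.2, 6.7 and 4.9 in GFP livers, again without overlap, and in a fit without the filter it differed by 1.05 ± 0.29 (limma adjusted p = 0.0409). That fit called 6 of the 20 member probe sets lower and 2, both of Pck2, higher, against 10.8% lower and 5.28% higher among all 22630.

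Pck1, the cytosolic form and a transcript strongly induced by glucagon and glucocorticoid, was lower by a smaller margin that depended on the scaling. Probe set 1423439_at had signals of 9065, 5979 and 7446 in BPD livers 23, 28 and 36, against 11346, 8381 and 12079 in GFP livers 22, 29 and 31. The groups overlapped in deposited signal, since BPD liver 23 lay above GFP liver 29, and did not after centring. The difference was -0.80 ± 0.23 (limma adjusted p = 0.0302, 1.74-fold lower). It did not pass with the deposited scaling (-0.50, adjusted p = 0.0809), with quantile normalization (-0.23, adjusted p = 0.337), relative to hepatocyte markers (-0.01, adjusted p = 0.956) or without the filter (adjusted p = 0.0618). Nor did it pass with 1 mouse left out, whether BPD mouse 28 (adjusted p = 0.104), GFP mouse 22 (0.101) or GFP mouse 31 (0.0952). A second Pck1 probe set, 1455209_at, was dim, at 34.3, 32.4 and 18.5 in BPD livers against 15.0, 13.7 and 39.3 in GFP livers, and was not kept.

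Glucose-6-phosphatase frees glucose from glucose 6-phosphate inside the endoplasmic reticulum, and Slc37a4 carries glucose 6-phosphate there. Slc37a4 fell the most of all member probe sets, while the catalytic subunit G6pc did not pass the test. For Slc37a4 the signals were 1306, 1298 and 1930 in BPD livers against 4887, 3747 and 4068 in GFP livers. The highest BPD liver, mouse 36, was still far under the lowest GFP liver. The difference was -1.79 ± 0.22 (limma adjusted p = 0.00096), or 3.47-fold lower, and 0.957% of all probe sets had a difference this low. Slc37a4 passed in all 17 alternatives, with limma adjusted p from 0.00033 to 0.00548.

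For G6pc, the liver and kidney subunit, signals were 8031, 5879 and 5828 in BPD livers against 10521, 8012 and 6538 in GFP livers. BPD liver 23 lay above GFP livers 29 and 31. The difference was -0.63 ± 0.23, with a 95% interval from -1.15 to -0.12 and a limma adjusted p of 0.0627, and it passed with array weights (adjusted p = 0.0322) and without BPD mouse 23 (-0.82, adjusted p = 0.0357). It was -0.11 with quantile normalization and 0.16 relative to hepatocyte markers. G6pc3, the subunit found in most tissues, lay just above the filter, at 166, 105 and 130 in BPD livers against 80.3, 88.2 and 121 in GFP livers. The groups overlapped, and the difference of 0.10 ± 0.26 did not pass (95% interval -0.48 to 0.69, limma adjusted p = 0.785). Relative to hepatocyte markers it was 0.89 (adjusted p = 0.0139), on a scale where 57.7% of all probe sets were higher and their median difference was 0.59.

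Pyruvate carboxylase, the biotin enzyme that opens the path from pyruvate, fell on 2 of its 5 probe sets, the gene's own and the 3' control. Probe set 1416383_a_at had signals of 4016, 3471 and 5021 in BPD livers against 7934, 6200 and 7738 in GFP livers, with no overlap. The difference was -1.11 ± 0.21 (limma adjusted p = 0.0051, 2.16-fold lower). The 3' control probe set gave 2289, 1730 and 2839 in BPD livers against 4569, 3601 and 4496 in GFP livers, also without overlap, and differed by -1.20 ± 0.24 (adjusted p = 0.0062). Both passed in every alternative except centring on hepatocyte markers, with -0.32 (adjusted p = 0.114) and -0.41 (adjusted p = 0.0853).

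The other control probe sets of Pcx did not pass. MB differed by -1.03 ± 0.37 (limma adjusted p = 0.0626), MA by -0.52 ± 0.37 (adjusted p = 0.313) and the 5' probe set by -0.39 ± 0.49 (adjusted p = 0.568). MB passed with array weights (-1.15, adjusted p = 0.0274) and without BPD mouse 36 (adjusted p = 0.0027). At the 5' probe set the signals were 253, 518 and 914 in BPD livers 23, 28 and 36, against 842, 657 and 263 in GFP livers 22, 29 and 31. The lowest values were thus those of BPD mouse 23 and GFP mouse 31, and the groups overlapped. The ratio of 3' to 5' signal was 9.06, 3.34 and 3.11 in BPD livers and 5.42, 5.48 and 17.1 in GFP livers, which sets these 2 mice apart from the rest of their groups. In the same RNA the 3' to 5' ratio of the Gapdh control was 0.735 to 0.863 in BPD and 0.785 to 0.900 in GFP livers, and that of the actin control 1.23 to 1.75 in BPD and 1.40 to 1.59 in GFP livers. The part of these ratios in the spread of the 5' values was not tested.

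**Figure D2:**
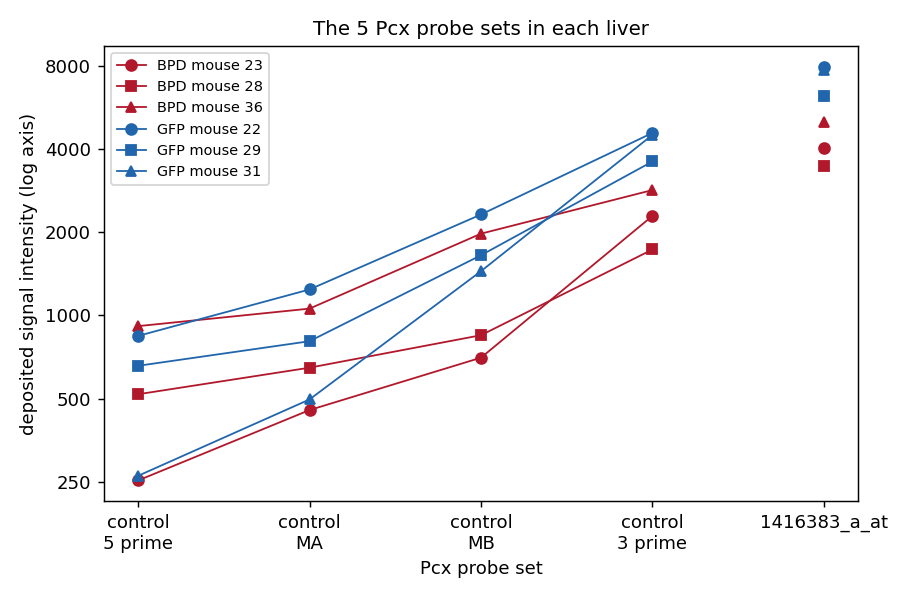
Deposited signal intensity (log axis) of the 5 Pcx probe sets in each liver, BPD in red and GFP in blue; lines join the 4 control probe sets as their names order them, and 1416383_a_at stands apart. The groups separate at the 3' control and at 1416383_a_at, and at the 5' control BPD mouse 23 (253) and GFP mouse 31 (263) lie lowest.

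All transaminase members were lower in BPD livers, Got1 by the widest margin. Got1, the cytosolic aspartate transaminase that regenerates oxaloacetate outside mitochondria, had signals of 1962, 1567 and 2149 in BPD livers against 3907, 3481 and 5290 in GFP livers. The groups lay far apart, with a difference of -1.44 ± 0.23 (limma adjusted p = 0.0023, 2.72-fold lower). Got1 passed in all 17 alternatives to that fit, from -1.62 to -0.65, with adjusted p up to 0.0162. The last of these is relative to hepatocyte markers, and on that scale leaving out BPD mouse 28 ended the call (-0.55, limma adjusted p = 0.0684).

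Gpt, the cytosolic alanine transaminase, had signals of 3912, 3214 and 3051 in BPD livers against 4878, 4731 and 5099 in GFP livers. The GFP livers differed little among themselves and all lay above the BPD livers, and the difference was -0.84 ± 0.17 (limma adjusted p = 0.0064). It did not pass with quantile normalization (-0.35, adjusted p = 0.0720) or relative to hepatocyte markers (-0.05, adjusted p = 0.744). Its probe set, 1426502_s_at, is of a kind that can match several transcripts.

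Tat, the tyrosine transaminase and a classic glucocorticoid-induced transcript, had signals of 6526, 6441 and 5986 in BPD livers against 8512, 6683 and 9499 in GFP livers. The BPD livers were nearly level, and GFP liver 29 lay just above them. The difference of -0.67 ± 0.18 passed (limma adjusted p = 0.0233). It did not pass with the deposited scaling (-0.37, adjusted p = 0.0887) or quantile normalization (-0.13, adjusted p = 0.459), and it was 0.12 relative to hepatocyte markers. Leaving out BPD mouse 28 (limma adjusted p = 0.0762), GFP mouse 22 (0.0812) or GFP mouse 31 (0.0859) also ended the call.

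Ppargc1a, the coactivator, has 5 probe sets, of which 3 lay above the filter and 2 were lower. Probe set 1437751_at had signals of 143, 122 and 162 in BPD livers against 189, 171 and 245 in GFP livers, and 1456395_at had 204, 138 and 153 in BPD livers against 224, 190 and 309 in GFP livers. The groups did not overlap in deposited signal on 1437751_at and did on 1456395_at, and after centring they overlapped on neither. The differences were -0.75 ± 0.22 (limma adjusted p = 0.0334) and -0.79 ± 0.25 (adjusted p = 0.0409). The brightest, 1460336_at, gave 288, 122 and 175 in BPD livers against 239, 169 and 595 in GFP livers, where mouse 31 stood alone, and did not pass (-0.92 ± 0.45, adjusted p = 0.156). The 2 probe sets under the filter, 1434099_at and 1434100_x_at, overlapped between groups, with -0.67 and -0.51 in the fit without the filter (adjusted p of 0.247 and 0.460). Neither call survived the deposited scaling (adjusted p of 0.135 and 0.144), centring on hepatocyte markers (0.04 and -0.003) or the fit without the filter (adjusted p of 0.0641 and 0.0750). Both also missed the threshold with BPD mouse 28, GFP mouse 22 or GFP mouse 31 left out, 1437751_at with BPD mouse 23 left out, and 1456395_at with BPD mouse 36 left out or with quantile normalization, with limma adjusted p from 0.0515 to 0.150.

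**Figure D3:**
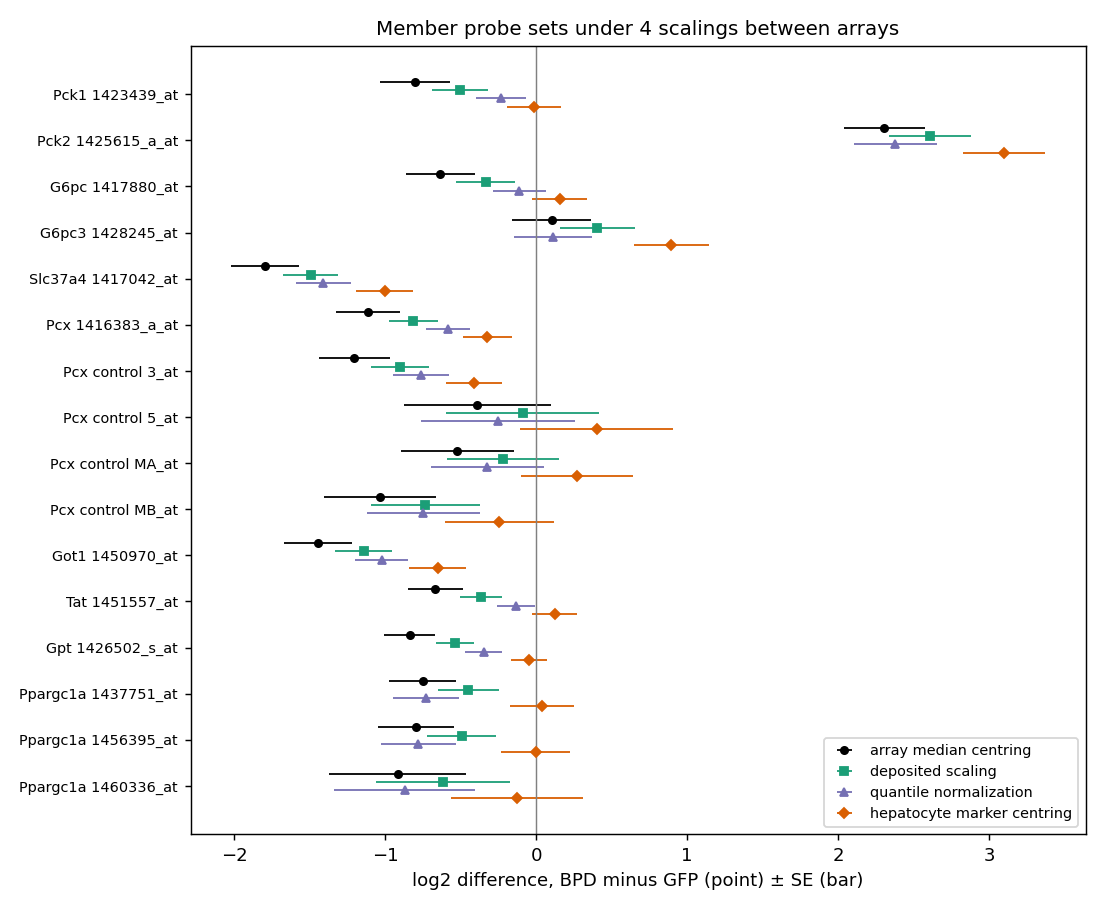
Log2 difference, BPD minus GFP (points) ± SE (bars), of the 16 member probe sets above the filter, under array-median centring (black), the deposited scaling (green), quantile normalization (purple) and centring on hepatocyte markers (orange). Pck2 lies right of 0 and Slc37a4 and Got1 left of 0 under all 4, while Pck1, Tat and Gpt move toward 0.

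A difference between 2 genes on the same array does not move when that array is centred, and its shift between the groups, not its level, is what can be read, since probe sets differ in brightness for the same RNA. With 3 livers a group the exact 2-sided permutation test cannot go below p = 0.1, which is 0.233 adjusted over the 7 pairs. The balance of Pck1 over Pck2 shifted the most, with log2 differences of 4.16, 3.82 and 4.87 in BPD livers against 7.41, 7.13 and 7.63 in GFP livers. All BPD livers lay below all GFP livers, the shift was -3.11 (exact permutation p = 0.1, the smallest possible), and it ranged from -3.40 to -2.87 with a mouse left out. Pck2 made the larger part of this shift, with 2.30 after array-median centring against -0.80 for Pck1. The Pck2 probe set had passed the filter through its level in BPD livers, so the shift says little about Pck1. G6pc shifted against its transporter Slc37a4 by 1.16, with 2.61, 2.17 and 1.59 in BPD livers against 1.10, 1.09 and 0.68 in GFP livers, also without overlap (exact permutation p = 0.1). Cytosolic Got1 shifted against mitochondrial Got2 by -0.86, with -2.31, -2.49 and -2.16 in BPD livers against -1.55, -1.66 and -1.16 in GFP livers (exact permutation p = 0.1).

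The other pairs overlapped between the groups. Pck1 minus Fbp1, the fructose-1,6-bisphosphatase of liver, averaged -0.97 ± 0.29 in the BPD group and -0.84 ± 0.35 in the GFP group (SD, n = 3 each, exact permutation p = 0.6). Gpt minus its mitochondrial partner Gpt2 averaged -0.90 ± 0.23 in BPD livers and -0.77 ± 0.26 in GFP livers (SD, exact permutation p = 0.6). G6pc minus G6pc3 differed by -0.74, or -1.05 to -0.46 with a mouse left out, and Pck1 minus Pcx by 0.31, or 0.14 to 0.45 (exact permutation p = 0.2 for each, 0.28 adjusted).

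**Figure D4:**
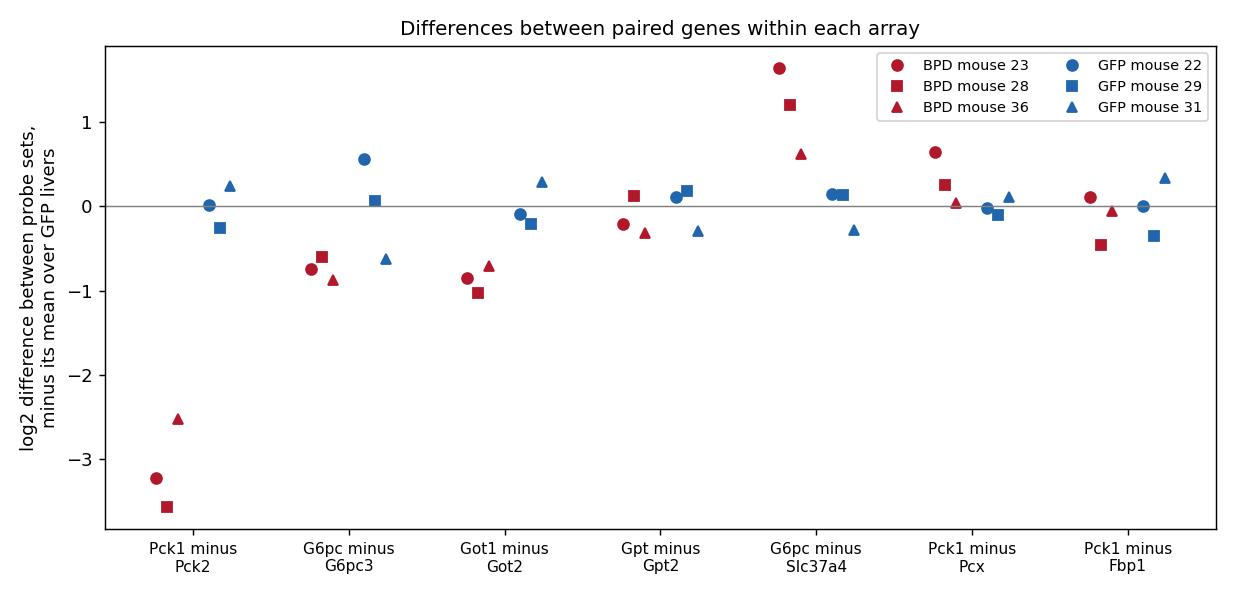
Log2 difference between 2 genes on the same array, shown for each liver after subtracting the mean over GFP livers, for 7 pairs; BPD livers are red on the left of each pair and GFP livers blue on the right. BPD livers lie outside the range of GFP livers for Pck1 minus Pck2, Got1 minus Got2 and G6pc minus Slc37a4.

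After centring, BPD liver 28 was the lowest BPD liver for 9 of the 10 genes (brightest probe set), the exception being Pck2, and GFP liver 29 was the lowest GFP liver for 9 of 10, the exception being G6pc. Over all probe sets these livers were lowest in 43.7% and 46.1%. They are also the arrays with the highest median signal of their groups, 197 and 157, and centring subtracts that median. In deposited signal, before centring, BPD liver 28 was still the lowest BPD liver for Pck1, G6pc3, Slc37a4, Pcx, Got1 and Ppargc1a. It was not for Pck2, G6pc, Tat and Gpt. GFP liver 29 was the lowest GFP liver for all but G6pc and G6pc3. The part of centring in this order was not tested.

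Other genes of glucose production were counted in 4 lists, which were chosen with earlier results of these data known. Of 55 measured genes 26 were lower, 1 higher and 28 did not pass, against 22.1% lower and 8.76% higher among all genes, and the lists' median of -0.45 lay 0.23 under that of all genes. Without BPD mouse 28 the number lower was 17 (11.4% of all genes). With the deposited scaling 17 were lower and 5 higher (11.1% and 17.2% of all genes), and with quantile normalization 11 and 3 (12.9% and 12.7%). Relative to hepatocyte markers 9 were lower and 21 higher (3.68% and 57.7%).

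Of 4 measured genes of the reversible steps and fructose-bisphosphatase 1 was lower, Fbp1, and 3 did not pass (list median -0.35). Fbp1, the enzyme that fructose 2,6-bisphosphate inhibits, had signals of 15024, 14707 and 13867 in BPD livers against 20200, 19114 and 17038 in GFP livers. These did not overlap, and the difference was -0.67 ± 0.13 (limma adjusted p = 0.0060), but -0.02 with quantile normalization and 0.12 relative to hepatocyte markers, neither of which passed.

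Of 10 measured shuttle and redox genes 7 were lower and 0 higher (list median -0.77). Mitochondrial malate dehydrogenase Mdh2 did not pass (0.44 ± 0.19, limma adjusted p = 0.101), and its other kept probe set gave 0.06. The brighter one did pass as higher with the deposited scaling (0.74, adjusted p = 0.0103) and quantile normalization (0.99, adjusted p = 0.0032). Relative to hepatocyte markers it was 1.23 (adjusted p = 0.00051). The aspartate-glutamate carrier Slc25a13 (-0.98 ± 0.18), the pyruvate carrier subunit Mpc1 (-0.97 ± 0.18), cytosolic malate dehydrogenase Mdh1 (-0.93 ± 0.18), the dicarboxylate carrier Slc25a10 (-0.86 ± 0.18) and glycerol-3-phosphate dehydrogenase Gpd1 (-0.83 ± 0.19) fell, with limma adjusted p from 0.0041 to 0.0122. Of these 5 only Slc25a13 passed with quantile normalization, and none did relative to hepatocyte markers. Gpd1 also missed the threshold with the deposited scaling (limma adjusted p = 0.0515). Mitochondrial Got2 and Gpt2 differed by -0.58 ± 0.14 (adjusted p = 0.0149) and -0.71 ± 0.23 (adjusted p = 0.0480), and neither passed with the deposited scaling, quantile normalization or hepatocyte markers. With genes represented only by probe sets of the plain _at kind both also missed it (limma adjusted p of 0.0711 and 0.0854), as Gpt2 did with the larger constant (0.0515), without the filter (0.0852) and without the intensity trend (0.0630). Leaving out BPD mouse 28 ended the calls of Gpd1, Got2 and Gpt2 (limma adjusted p of 0.0508, 0.0560 and 0.159). Leaving out GFP mouse 22 or 31 ended those of Got2 and Gpt2, and leaving out BPD mouse 36 that of Gpt2 (limma adjusted p from 0.0563 to 0.156).

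Of 14 measured genes of precursor entry and glucose exit 9 were lower and 1 higher (list median -0.90). Prodh, the proline dehydrogenase, had signals of 389, 320 and 601 in BPD livers against 3922, 3613 and 4722 in GFP livers and differed by -3.52 ± 0.26 (limma adjusted p = 0.00015). Hal, which opens histidine breakdown (-1.95), the alanine-glyoxylate transaminase Agxt (-1.85), Hpd of tyrosine breakdown (-1.53), the amino acid transporter Slc38a4 (-1.15) and the glycerol channel Aqp9 (-0.97) fell, with limma adjusted p up to 0.0012. All but Aqp9 also passed relative to hepatocyte markers. Hpd is itself among the 14 markers that set this scale, so its result there is not independent of it. The lactate and pyruvate transporter Slc16a1 was the 1 gene that rose, by 0.62 ± 0.18 (adjusted p = 0.0337), with 2238, 2334 and 1672 in BPD livers against 1208, 1092 and 961 in GFP livers. Leaving out either of BPD mice 23 and 28, or of GFP mice 29 and 31, ended this call (limma adjusted p from 0.0873 to 0.113). Slc16a1 passed with the deposited scaling (0.92, adjusted p = 0.0061) and quantile normalization (0.96, adjusted p = 0.0081). It also passed relative to hepatocyte markers (1.41, adjusted p = 0.00047), where 57.7% of all genes were higher.

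Of 27 measured genes of hormone and transcription control 9 were lower and 0 higher (list median -0.42). Hsd11b1, which regenerates active glucocorticoid inside liver cells, had signals of 2234, 1773 and 4767 in BPD livers against 13494, 12799 and 11133 in GFP livers, where BPD liver 36 stood above the other two BPD livers. The difference was -2.52 ± 0.33 (limma adjusted p = 0.0011). The glucagon receptor Gcgr was lower by -1.33 ± 0.21 (adjusted p = 0.0024) and the fatty acid sensor Ppara by -1.55 ± 0.26 (adjusted p = 0.0032), and both passed under all 4 scalings. The glucocorticoid receptor Nr3c1 (-0.64 ± 0.16), Cebpa (-1.03 ± 0.29) and Foxa2 (-0.62 ± 0.18), transcription factors of liver, passed after centring on the array median (adjusted p from 0.0171 to 0.030) and under no other of the 4 scalings. Nr3c1 was called on 1 of its 3 kept probe sets, and the smallest difference among them was -0.29. Leaving out BPD mouse 23, BPD mouse 28 or GFP mouse 22 ended all 3 calls, that of Cebpa was also lost without GFP mouse 29 or 31, and that of Foxa2 without BPD mouse 36 or GFP mouse 31, with limma adjusted p up to 0.0958.

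**Figure D5:**
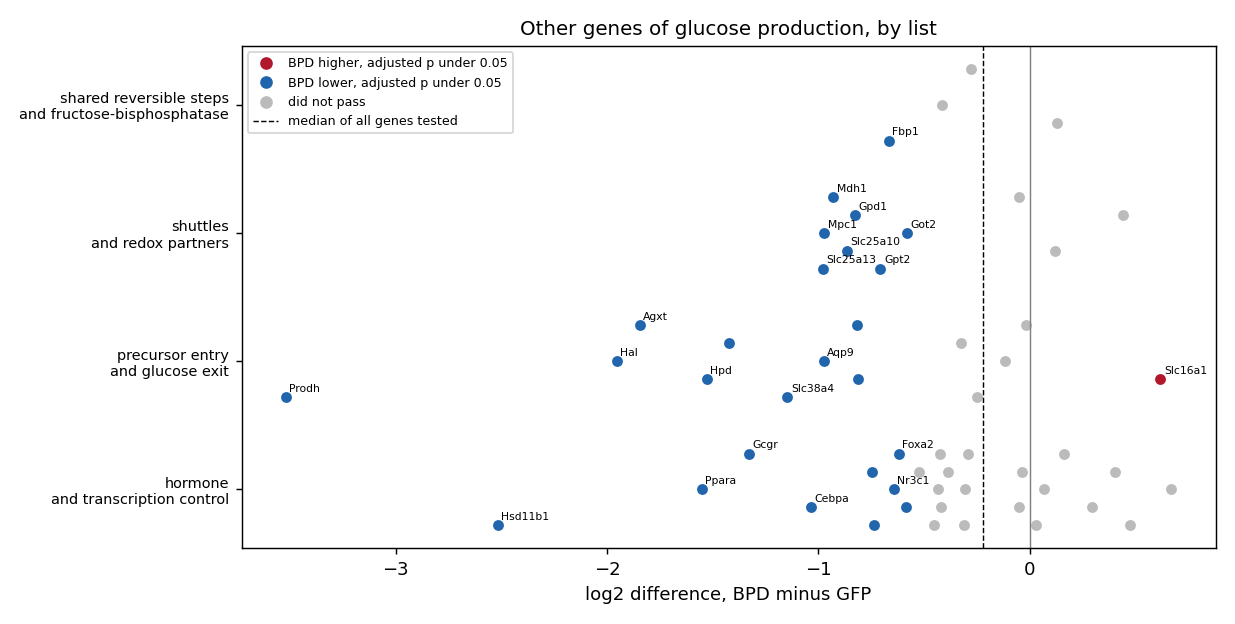
Log2 difference, BPD minus GFP, of 55 genes in 4 lists, 1 point per gene, with lower genes in blue, higher in red and those that did not pass in grey; the dashed line is the median of all genes tested (-0.22). Prodh at -3.52 and Hsd11b1 at -2.52 lie farthest left, and Slc16a1 at 0.62 is the only red point.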

How the data were processed

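Per the submitters' processing notes, the authors made the deposited signal intensities with MAS5; no version, target value or filter of it is known here. The intensities are linear, and trimming 2% at each end gave a mean near 499.9 on every array. Of 22690 probe sets 60 controls were left out and 22630 analysed, including the 4 controls that the annotation names Pcx. Groups were taken from sample titles, and 0 columns were unused.

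Values were analysed as log2(signal + 16.3), the constant being 10% of the median of all values (163). Array medians differed 1.46-fold, more than the 25% allowed, so each array was centred on its median. Probe sets with a mean above the 40th percentile (signal 98.9) were kept, 13578 in all, and a gene was represented by its brightest kept probe set (8151 genes). The 2 groups were fitted in limma 3.58.1 under R 4.3.3 (lmFit, eBayes with intensity trend, 2-sided; 4 residual and 5.43 prior degrees of freedom) with Benjamini-Hochberg adjustment and a threshold of 0.05. For hepatocyte centring, the median of 14 markers replaced the array median. Hpd, Tdo2 and Hnf4a are among these markers and also in the pathway lists. Differences carry the SE of the fit. The number of arrays limits the precision. No proteins were compared, since protein sequences were not used here.

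Members and lists were chosen with earlier results of these data known. Named beside the 10 members are up to 6 genes per list past the threshold with the smallest p, plus Fbp1, Got2 and Gpt2. Slc16a1, the 1 higher gene, and Mdh2 were named after their values were seen. Alternatives covered scaling, constant, filter, eBayes, array weights, the probe set per gene and leaving out each mouse. Leaving out the Pcx controls, and leaving out each mouse on the hepatocyte scale, were chosen after seeing the data.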

Additional observations from a re-analysis of the deposited data

How the results depend on the processing

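Of the members, Slc37a4 and Got1 in all 17 alternatives and Pck2 in the 16 that kept it stayed past the threshold in the same direction; on the hepatocyte scale Got1 missed it without BPD mouse 28 (-0.55). The 9 lower member probe sets became 5 as deposited, 5 after quantile normalization and 2 relative to hepatocyte markers, and 5 to 9 with a mouse left out; the 1 higher became 2 relative to hepatocyte markers, 2 without the filter and 0 with a filter at the 60th percentile, which removes Pck2, and stayed at 1 with a mouse left out. Without the 4 Pcx controls, 8 were lower and 1 higher. On the hepatocyte scale, leaving out a mouse gave 1 to 5 lower and 2 to 2 higher. For the 4 lists, 26 lower and 1 higher became 17 and 5 as deposited, 11 and 3 after quantile normalization, and 9 and 21 relative to hepatocyte markers; the higher count was 2 without the filter, and with a mouse left out 17 to 24 were lower and 0 to 2 higher. Differences changed sign relative to hepatocyte markers for G6pc (0.16), the 5' and MA controls of Pcx (0.40 and 0.27), Tat (0.12), Ppargc1a 1437751_at (0.040), Fbp1 (0.12), Foxa2 (0.17), Got2 (0.21), Gpt2 (0.084) and Nr3c1 (0.15), and with quantile normalization for Got2 (0.044). The hepatocyte scale moves the median of all kept probe sets to 0.59, against -0.21 with array medians, 0.10 as deposited and -0.06 with quantiles. With a mouse left out, G6pc3 ranged from -0.080 to 0.30, the 5' control of Pcx from -0.86 to 0.042, and Pck1 minus Fbp1 from -0.31 to 0.036. No paired analysis was possible because the groups share no mouse number. The cause of these changes was not tested. Of the kept members, Pck2 in GFP livers lay nearest the added constant.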
